A study of Homo sapiens with 9 samples.

Results

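HSD3B2 and HSD3B1 encode the 3β-hydroxysteroid dehydrogenases of human steroid synthesis, and their expression was followed in H295R cells, a line from a human adrenocortical carcinoma, on GeneChip Human Gene 1.0 ST arrays. The members were the probe sets that the array annotation assigns to either gene, which gave 1 probe set for each gene, 2 of the 33297 probe sets on the array. A further probe set was assigned to the pseudogene HSD3BP4 and is given as context, which makes 3 probe sets with an HSD3B symbol in all. No probe set was assigned to HSD3B7, the enzyme of bile acid synthesis, in the annotation used, and it was not analysed here. All cells were plated for 24 h and then kept for 48 h in 1 of 3 media. These were serum-free starvation medium with 10 mM metformin (a biguanide antidiabetic drug), serum-free starvation medium alone, and normal growth medium with serum, insulin, transferrin and selenium. Starvation removed the supplements together with the serum, so the effects of serum and of each supplement cannot be told apart. Each group had 3 arrays, named by the letters A, B and C, and the design text describes 3 independent experiments. All groups came from 1 tumour line, and HSD3B2, HSD3B1 and RARB were among the genes that the study itself singled out on these arrays, so their changes in starvation are not independent evidence.

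The 3β-hydroxysteroid dehydrogenases sit in the endoplasmic reticulum and mitochondria, where they oxidise the 3β-hydroxyl group of a steroid and move its double bond from the B ring into the A ring. They turn pregnenolone into progesterone and DHEA into androstenedione, and without this step neither aldosterone, cortisol nor the potent sex steroids can be made. HSD3B2 (type II) is the form of the adrenal and the gonads, and its loss causes a form of congenital adrenal hyperplasia. HSD3B1 (type I) is the form of the placenta, skin and other peripheral tissues. In the human adrenal, low HSD3B2 beside high CYP17A1 and CYB5A is a mark of the zona reticularis, which secretes DHEA and its sulfate.

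Signals are RMA values on the log2 scale, on which a difference of 1 is a 2-fold difference, and the medians of the 9 arrays lay between 6.04 and 6.16. Pearson correlations over all probe sets lay between 0.990 and 0.997 for the 9 pairs of arrays of 1 group and between 0.984 and 0.997 for the 27 pairs of different groups. Of the 6 adrenocortical markers measured, STAR, CYP11A1, CYP17A1 and NR5A1 lay above the array median on all 9 arrays. MRAP, the accessory protein of the ACTH receptor, lay below it on all 9. MC2R, the ACTH receptor itself, lay below it on all starvation and normal growth arrays and on 1 of 3 metformin arrays. The summed log2 signal of the 6 was 56.9 with metformin, 56.4 in starvation and 56.9 under normal growth, a sum in which members that moved in opposite directions (NR5A1 lower and MC2R higher with metformin) partly cancel. A call is an adjusted p under 0.05 from limma with Benjamini-Hochberg adjustment over all probe sets, and counts are given over 18417 genes. In such bulk samples, fewer cells of a type and less RNA per cell cannot be told apart.

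Both genes lie on chromosome 1 in a cluster with their pseudogenes, in the RefSeq order HSD3B2, HSD3BP2, HSD3BP1, HSD3B1, HSD3BP3, HSD3BP4 and HSD3BP5. The windows around their start sites, from 250 bases before to 50 bases after, are shown because they hold the sequence next to each start site and share a related stretch at different places. They are given on the plus strand of GRCh38.p14 (RefSeq) for chr1:119414681-119414980 (HSD3B2) and chr1:119506953-119507252 (HSD3B1). Capitals mark the stretch of 89 bases that aligned between the windows, of which 78 (87.6%) were identical.
HSD3B2: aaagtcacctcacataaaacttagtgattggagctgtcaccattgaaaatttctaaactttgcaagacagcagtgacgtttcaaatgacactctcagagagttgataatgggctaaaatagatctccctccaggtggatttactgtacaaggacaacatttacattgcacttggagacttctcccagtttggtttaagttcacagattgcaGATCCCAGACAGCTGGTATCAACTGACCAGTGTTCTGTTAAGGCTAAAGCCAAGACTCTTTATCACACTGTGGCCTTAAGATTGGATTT
HSD3B1: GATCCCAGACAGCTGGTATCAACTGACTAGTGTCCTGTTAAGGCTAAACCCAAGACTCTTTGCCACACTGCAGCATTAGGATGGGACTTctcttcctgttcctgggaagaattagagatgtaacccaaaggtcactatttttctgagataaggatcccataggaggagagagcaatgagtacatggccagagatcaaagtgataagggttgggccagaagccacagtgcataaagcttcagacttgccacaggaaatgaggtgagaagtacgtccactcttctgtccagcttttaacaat
The related stretch covers the start site of HSD3B2, from position -39 to 50, but it lies upstream of the start site of HSD3B1, from -250 to -162.

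Short motifs of factors known from steroidogenic genes were searched on both strands of each window. The NBRE, bound by NR4A receptors (AAAGGTCA), was found in the HSD3B1 window at -124, and 1.23% of the 27305 RefSeq windows of the same length hold it. The nuclear receptor hexamer AGGTCA at -122 lies within that match, and 14% of windows hold it. A GATA site (AGATAA, 10.5% of windows) was found at -105 of HSD3B1. The HSD3B2 window held the CRE core TGACG (24.9% of windows) at -177. The SF-1 site CAAGGTCA (1.34% of windows) and the STAT site TTCNNNGAA (7.89% of windows) were in neither window. Only this form of the STAT site was searched, so forms with another spacing are not covered. For the GATA site only AGATAA was searched. The letters TGATAA, which differ from it in the first base, occur in both printed windows and were not counted. The AGATAA match therefore does not set the windows apart in GATA sites. The stretch aligned between the windows ends at the last base of the HSD3B2 window. Any HSD3B2 counterpart of the HSD3B1 bases after -162, with the NBRE and the GATA site, lies outside that window and was not searched. These are matches of letters within these windows and say nothing on binding.

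HSD3B2 was lower in starved cells than under normal growth, and lower again when metformin was present. On replicates A, B and C its log2 signal was 5.42, 6.02 and 5.86 in starvation with metformin. It was 6.93, 7.17 and 7.20 in starvation alone, and 8.98, 9.11 and 9.18 under normal growth. The 3 groups did not overlap, and the gap between neighbouring groups was wider than the spread within any of them. The metformin arrays were the most scattered, with a mean of 5.77 ± 0.32 (SD, n = 3), against 7.10 ± 0.14 in starvation and 9.09 ± 0.10 under normal growth. All 3 metformin values lay below the median of their own array, where a fold can be understated by background, and all starvation and normal growth values lay above it.

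**Figure D1:**
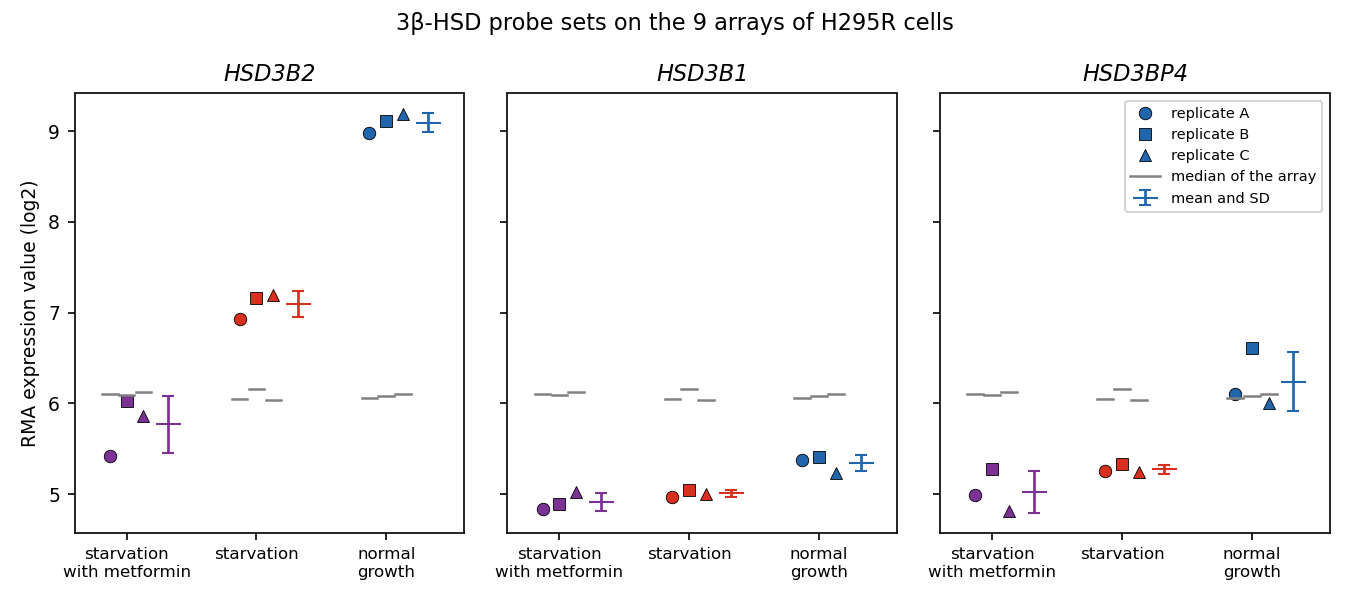
RMA log2 value (vertical axis) of HSD3B2, HSD3B1 and the pseudogene HSD3BP4 by group, with a symbol for each replicate, the group mean with its SD beside the symbols, and the median of each array as a grey dash. The HSD3B2 groups are separate, with means of 5.77, 7.10 and 9.09, whereas all HSD3B1 values lie between 4.83 and 5.41, below the array medians.

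In starvation HSD3B2 fell by 1.99 on the log2 scale relative to normal growth (SE 0.09, 95% confidence interval -2.22 to -1.77, adjusted p = 0.00648 in limma). This was a 3.98-fold lower level (95% interval 3.40 to 4.65), and the lowest change of all 18417 genes. Starvation lowered 0.163% of genes past the threshold and raised 0.0652%, and 0.038% were lower by at least 2-fold as well. The call was lost without normal growth replicate A (adjusted p = 0.0911 in limma), B (0.121) or C (0.0871) and without starvation replicate C (0.0861), while the log2 change stayed between -2.05 and -1.91 in all alternatives. The exact two-sided permutation test gave p = 0.1, the smallest value that 3 arrays against 3 allow.

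With metformin HSD3B2 fell by a further 1.33 relative to starvation alone (SE 0.17, 95% interval -1.75 to -0.91, adjusted p = 0.0212 in limma). The level was 2.52-fold lower (95% interval 1.88 to 3.36), and the change was the 12th lowest of 18417 genes. Metformin lowered 2.89% of genes past the threshold and raised 3.14%, and 0.228% were lower by at least 2-fold as well. The call was lost without starvation replicate A (adjusted p = 0.103 in limma), B (0.0785) or C (0.118), without metformin replicate A (0.0615), and under the methods' t-test (adjusted p = 0.0698). Metformin replicate A was the lowest of its group, and without it the log2 change was -1.16. The exact permutation test gave p = 0.1, again the smallest possible.

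Set against normal growth, starvation with metformin gave the widest difference in HSD3B2. Its signal fell by 3.32 on the log2 scale (SE 0.16, 95% interval -3.72 to -2.93, adjusted p = 0.00221 in limma). This was a 10.01-fold lower level (95% interval 7.60 to 13.2) and the lowest change of all 18417 genes. In this comparison 6.36% of genes were lower past the threshold, 6.16% were higher, and 0.386% were lower by at least 2-fold as well. The call held with each array left out in turn (adjusted p between 0.00642 and 0.0376 in limma). On the log2 scale 59.9% of the whole difference lay between normal growth and starvation and 40.1% between starvation and starvation with metformin. The 3 comparisons share arrays, so these shares follow from the same group means.

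HSD3B1 had a low signal on every array, and its differences were small. Its log2 signal on replicates A, B and C was 4.83, 4.89 and 5.02 with metformin, 4.97, 5.05 and 5.01 in starvation, and 5.38, 5.41 and 5.24 under normal growth. All 9 values lay below the median of their array. The metformin and starvation arrays overlapped, and both groups lay below the normal growth arrays without overlap.

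The HSD3B1 change in starvation relative to normal growth was -0.33 (SE 0.06, 95% interval -0.48 to -0.18) and did not pass the test (adjusted p = 0.179 in limma). This was a 1.26-fold lower level. The study, in contrast, lists HSD3B1 among its genes lower by at least 2-fold in starvation, and reports the same direction by qRT-PCR. The cause of this difference in size was not tested. Metformin relative to starvation alone gave an HSD3B1 change of -0.09 (SE 0.07, 95% interval -0.26 to 0.07, adjusted p = 0.525 in limma). Only the comparison of starvation with metformin against normal growth passed, where HSD3B1 fell by 0.43 (SE 0.08, 95% interval -0.61 to -0.24, adjusted p = 0.0263 in limma), a 1.34-fold lower level (95% interval 1.18 to 1.53). That call was lost without normal growth replicate A (adjusted p = 0.112 in limma), B (0.108) or C (0.0653), without metformin replicate A (0.0721) or B (0.0746), and under the methods' t-test (adjusted p = 0.0703). The exact permutation p was 0.1 for starvation against normal growth, 0.3 for metformin against starvation and 0.1 for metformin against normal growth. As HSD3B1 lay near the dim end of the arrays, a change in a low level could be understated, and how much of its signal comes from HSD3B2 transcripts through shared sequence was not tested.

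HSD3BP4, a pseudogene of the cluster, showed values of 4.99, 5.28 and 4.82 with metformin, 5.26, 5.33 and 5.24 in starvation, and 6.10, 6.61 and 6.001 under normal growth. The metformin and starvation arrays overlapped, and all of them lay below the normal growth arrays. HSD3BP4 lay below the array median on all metformin and starvation arrays and on 1 normal growth array, where a fold can be understated. Its log2 change in starvation was -0.96 (SE 0.16, adjusted p = 0.159 in limma), the 13th lowest of 18417, and did not pass the test. With metformin relative to starvation the change was -0.25 (SE 0.12, adjusted p = 0.333 in limma). Relative to normal growth HSD3BP4 fell by 1.21 with metformin (SE 0.19, adjusted p = 0.0196 in limma), a 2.31-fold lower level (95% interval 1.67 to 3.21). This last call was lost when normal growth replicate A (adjusted p = 0.0774 in limma), B (0.0575) or C (0.061) or metformin replicate A (0.0691) was left out, and under the methods' t-test (0.0782). Whether its probes also take up HSD3B2 transcripts was not tested.

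Counted by arrays, all 3 HSD3B probe sets were lower without overlap in starvation than under normal growth, a pattern found in 9.62% of all genes. The same held for all 3 with metformin against normal growth, where 19% of all genes showed it. Between metformin and starvation it held for HSD3B2 alone of the 3, against 15.2% of all genes.

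**Figure D2:**
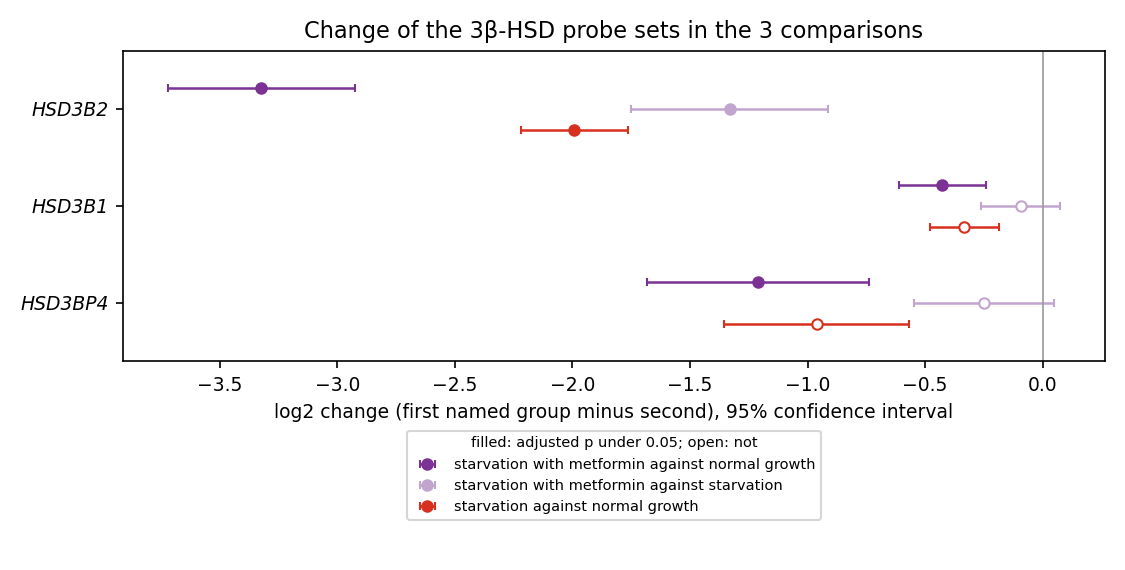
Log2 changes (horizontal axis) of the 3 HSD3B probe sets in each comparison, the first-named group minus the second, with 95% confidence intervals from limma and filled symbols for an adjusted p under 0.05. HSD3B2 lies furthest from 0 of the 3 in every comparison, at -3.32, -1.33 and -1.99 in the order of the legend.

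The difference between the paralogs was followed within each array, as log2 HSD3B2 minus log2 HSD3B1. Since each probe set has its own affinity, the size of this difference is not a ratio of transcripts. HSD3B1 lay below the array median on all 9 arrays, where its change can be understated, so the difference largely follows HSD3B2 and does not show how far the HSD3B1 transcript changed. It was 0.58, 1.13 and 0.84 with metformin, 1.97, 2.12 and 2.19 in starvation, and 3.61, 3.70 and 3.95 under normal growth. The groups did not overlap. The difference between group means was -1.66 for starvation minus normal growth, -1.24 for metformin minus starvation, and -2.90 for metformin minus normal growth. Each gave an exact two-sided permutation p of 0.1, the smallest possible here. Leaving out 1 array in turn kept these differences between -1.73 and -1.56, between -1.38 and -1.10, and between -3.04 and -2.76.

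Of the genes of adrenal steroid synthesis that were measured, HSD3B2 alone passed the test in starvation. The list held 29 genes with HSD3B2 and HSD3B1 among them, and 27 were measured by a probe set with a single symbol (FDXR and CYP21A2 were not). CYP21A2 was thus not tested here. The study reports it lower in starvation on the arrays, at a smaller fold limit than its other genes, and by qRT-PCR. In starvation against normal growth 0 rose, 1 fell and the other 26 stayed short of the threshold, where 0.163% of all genes fell and 0.0652% rose. At an unadjusted p under 0.05 there were 8 lower and 1 higher, against 5.77% lower and 4.12% higher of all genes, and the methods' t-test called 1 lower and 0 higher. The count of called genes lay between 0 and 3 over the alternatives, and it was 0 when any 1 array of normal growth, or starvation replicate C, was left out. The median log2 change of the list was -0.04, and that of all genes was -0.00.

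STAR, which brings cholesterol to the inner mitochondrial membrane, had a signal of 11.70 ± 0.17 with metformin, 11.26 ± 0.05 in starvation and 11.71 ± 0.05 under normal growth (SD, n = 3 each). Its log2 change was -0.45 in starvation (adjusted p = 0.0583 in limma) and 0.45 with metformin relative to starvation (adjusted p = 0.0645 in limma), and neither passed. CYP11A1, the side-chain cleavage enzyme that makes pregnenolone, averaged 11.61 with metformin, 11.87 in starvation and 11.88 under normal growth. CYP17A1, which makes the hydroxylated precursors and DHEA and so competes with HSD3B2 for pregnenolone, averaged 11.28, 11.35 and 11.43 in the same order. Neither P450 was called in any comparison. Their intervals of change in starvation relative to normal growth included 0. With metformin the CYP11A1 intervals did not, at -0.519 to -0.006 against starvation and -0.526 to -0.030 against normal growth. Those of CYP17A1 included 0 there as well.

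The electron donors of these P450s also stayed below the threshold. FDX1, which serves CYP11A1, had a log2 change of -0.28 in starvation (adjusted p = 0.225 in limma). POR, the reductase of CYP17A1, changed by -0.02 in starvation and by -0.05 with metformin relative to starvation, and CYB5A, which favours the formation of DHEA, by -0.16 and -0.09, none past the test. CYP11B1 and CYP11B2, which act after HSD3B2 in the making of cortisol and aldosterone, lay below the array median on all 9 arrays and were not called.

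With metformin relative to starvation, 3 of 27 fell (HSD3B2, SULT2A1 and STS), 1 rose (AKR1C1) and 23 did not pass. Of all genes 2.89% fell and 3.14% rose in this comparison, with a list median of 0.01 and a median of all genes of -0.03. SULT2A1, the sulfotransferase that makes DHEA sulfate, had 8.61, 8.66 and 8.61 with metformin and 9.44, 9.34 and 9.57 in starvation, a fall of 0.82 (SE 0.07, adjusted p = 0.0145 in limma). STS, the sulfatase of the reverse step, had 6.53, 6.57 and 6.29 with metformin and 7.72, 7.44 and 7.74 in starvation, a fall of 1.17 (SE 0.12, adjusted p = 0.0159 in limma). AKR1C1, which inactivates progesterone, rose by 0.72 (SE 0.11, adjusted p = 0.0321 in limma), with the limit that AKR1C genes are near-identical. The methods' t-test called 2 lower and 0 higher. With 1 array left out the count of called genes lay between 0 and 3, and it was 0 without starvation replicate A, B or C or metformin replicate A.

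In starvation with metformin relative to normal growth, 5 of 27 were lower (HSD3B2, HSD3B1, SULT2A1, STS and CYP19A1) and 4 higher (AKR1C1, AKR1C2, AKR1C3 and PAPSS2). This comparison spans both starvation and the drug, so its changes are not those of metformin alone. Only HSD3B2, SULT2A1, STS and AKR1C1 of these were also called relative to starvation alone. Of all genes 6.36% fell and 6.16% rose, with a list median of -0.05 and a median of all genes of -0.02. SULT2A1 fell by 1.19 (adjusted p = 0.00198 in limma) and STS fell by 1.15 (adjusted p = 0.00626 in limma). CYP19A1, the aromatase that acts on the androstenedione made by HSD3B2, fell by 0.51 (adjusted p = 0.0223 in limma). The AKR1C genes, of which AKR1C3 makes testosterone from androstenedione, rose by 0.72, 0.67 and 0.75 for AKR1C1, AKR1C2 and AKR1C3 (adjusted p = 0.00637, 0.0216 and 0.00951 in limma). PAPSS2, which supplies the sulfate donor to SULT2A1, rose by 0.49 (adjusted p = 0.0276 in limma). Relative to starvation alone its change was 0.06 (adjusted p = 0.741 in limma). The methods' t-test called 3 lower and 2 higher, and the count of 9 called genes became 5, 4 and 4 when normal growth replicate A, B and C was left out.

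**Figure D3:**
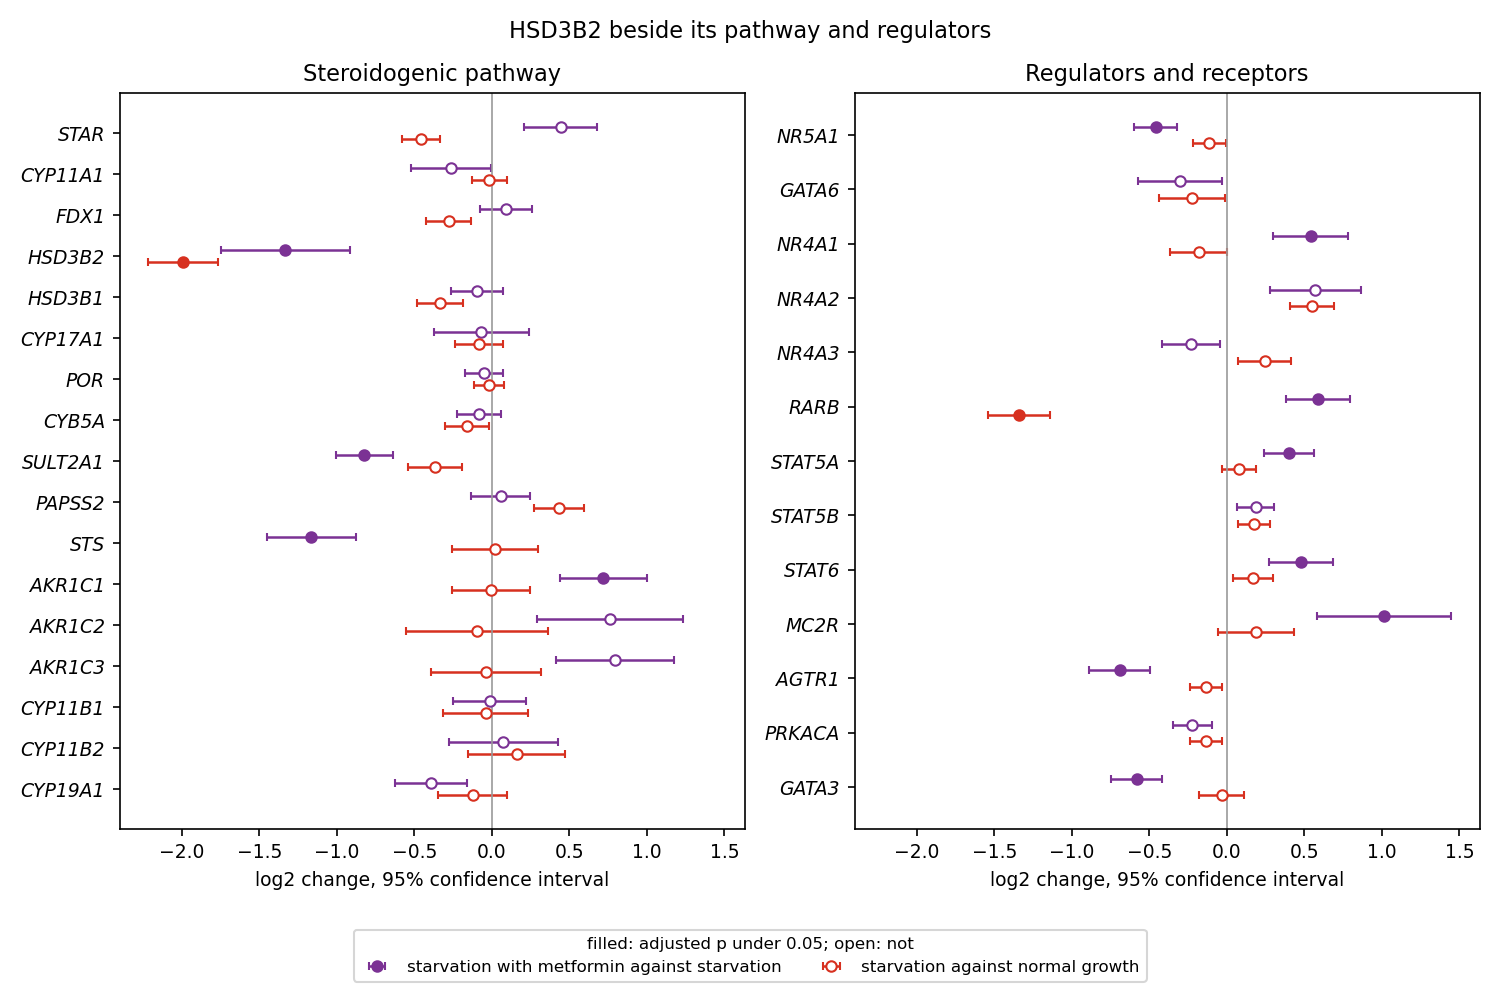
Log2 changes (horizontal axes) with 95% confidence intervals from limma for the named genes of the steroidogenic pathway (left panel) and for regulators and receptors (right panel), in starvation with metformin against starvation and in starvation against normal growth, with filled symbols for an adjusted p under 0.05. HSD3B2 is filled in both comparisons, at -1.33 and -1.99, and RARB lies at 0.59 and -1.34.

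Of 26 genes listed as factors and receptors of HSD3B2, of HSD3B1 or of adrenal steroidogenesis, 24 were measured (NR0B1 and NR2F2 were not). In starvation 0 rose, 1 fell and the other 23 stayed short of the threshold, where 0.163% of all genes fell and 0.0652% rose. At an unadjusted p under 0.05 there were 6 lower and 4 higher, against 5.77% lower and 4.12% higher of all genes, and the methods' t-test called 0. The gene called was RARB, retinoic acid receptor β, also singled out by the study on these arrays, which had 4.89, 4.61 and 4.71 in starvation and 6.02, 6.09 and 6.14 under normal growth. It fell by 1.34 (SE 0.08, adjusted p = 0.013 in limma), and its starvation values lay below the array median. Its call was lost when normal growth replicate A (adjusted p = 0.115 in limma), B (0.122) or C (0.185) or starvation replicate C (0.13) was left out.

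NR5A1 (SF-1), the nuclear receptor that drives most steroidogenic genes, had a log2 change of -0.11 in starvation relative to normal growth (adjusted p = 0.589 in limma). With metformin it had 10.27, 10.38 and 10.32, against 10.77, 10.81 and 10.77 in starvation, a fall of 0.46 (SE 0.06, adjusted p = 0.0196 in limma). Against normal growth it fell by 0.57 with metformin (adjusted p = 0.00616 in limma). GATA6, a zinc finger factor of the adrenal cortex, fell by 0.53 with metformin relative to normal growth (adjusted p = 0.026 in limma), and its changes of -0.22 in starvation and -0.30 with metformin relative to starvation did not pass.

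The NR4A receptors, which bind the NBRE and are known to activate the HSD3B2 promoter, were not called lower in any comparison. NR4A1 (NUR77) had 9.82, 9.57 and 9.83 with metformin and 9.14, 9.33 and 9.13 in starvation, a rise of 0.54 (SE 0.10, adjusted p = 0.0445 in limma), and its change in starvation was -0.18 (adjusted p = 0.628 in limma). NR4A2 (NURR1) averaged 7.15 with metformin, 6.58 in starvation and 6.03 under normal growth, in the opposite order to HSD3B2. It rose by 1.12 with metformin relative to normal growth (adjusted p = 0.00887 in limma), while its changes of 0.55 in starvation (adjusted p = 0.0538 in limma) and 0.57 with metformin relative to starvation (adjusted p = 0.06 in limma) did not pass. NR4A3 (NOR1) had changes of 0.24, -0.23 and 0.01 in starvation, with metformin relative to starvation and with metformin relative to normal growth, none past the test.

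Over the whole regulator list, metformin relative to starvation raised 5 of 24 (NR4A1, STAT5A, STAT6, RARB and MC2R) and lowered 3 (NR5A1, AGTR1 and GATA3), and 16 did not pass, where 3.14% of all genes rose and 2.89% fell. The list median was -0.04 and that of all genes was -0.03. RARB thus rose by 0.59 with metformin (adjusted p = 0.0258 in limma), unlike HSD3B2. Its values lay below the array median on all metformin and starvation arrays, and this call was lost in 9 of 14 alternatives. MC2R, the ACTH receptor whose cyclic AMP signal induces HSD3B2 in the adrenal, had 6.27, 6.72 and 6.02 with metformin and 5.38, 5.32 and 5.26 in starvation, a rise of 1.02 (SE 0.18, adjusted p = 0.0389 in limma). Its starvation and normal growth values lay below the array median. AGTR1, the angiotensin II receptor, fell by 0.69 (SE 0.08, adjusted p = 0.0182 in limma). Of the genes other than the HSD3B probe sets, 14 of those named in the text were called in this comparison, and 0 of these calls held with every array left out in turn.

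In starvation with metformin relative to normal growth, 5 of 24 regulators were higher (NR4A2, STAT5A, STAT5B, STAT6 and MC2R). Another 6 were lower (NR5A1, GATA6, RARB, AGTR1, PRKACA and GATA3), where 6.16% of all genes rose and 6.36% fell. This comparison spans both starvation and the drug, and RARB, lower here, was higher than in starvation alone. NR4A2, STAT5B, GATA6 and PRKACA were not called relative to starvation alone. The list median was -0.03 and that of all genes was -0.02. STAT5A and STAT5B are signal transducers of the prolactin receptor, and STAT6 is that of interleukin-4, a cytokine known to induce HSD3B1. PRKACA, the catalytic subunit of protein kinase A, fell by 0.36 (adjusted p = 0.0152 in limma). Of the other named genes, 24 were called in this comparison and 11 of these calls held with every array left out in turn, among them SULT2A1, STS, AKR1C1, NR5A1, RARB and AGTR1.

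Genes of neighbouring pathways gave no call. Of 15 genes of bile acid synthesis, the route in which HSD3B7 acts, 13 were measured (AMACR and SCP2 were not), and 0 were called in any comparison by limma or by the methods' t-test. At an unadjusted p under 0.05, 1 was higher and 0 lower in starvation, 0 higher and 2 lower with metformin relative to starvation, and 1 higher and 1 lower with metformin relative to normal growth. Of all genes, 4.12% were higher and 5.77% lower at this threshold in starvation, 12.3% and 11.3% with metformin relative to starvation, and 13.5% and 15% with metformin relative to normal growth. The related dehydrogenases NSDHL, which acts on sterols in cholesterol synthesis, and SDR42E1 were not called either, by either test. SDR42E1 had a log2 change of -0.48 with metformin relative to starvation (adjusted p = 0.135 in limma), and NSDHL one of -0.08 (adjusted p = 0.559 in limma).

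Markers of other tissues were looked at beside these results. None of the 5 skin, 5 fibroblast, 4 endothelial and 3 immune markers measured was called in any comparison by limma or by the methods' t-test, and 1 fibroblast marker was lower at an unadjusted p under 0.05 with metformin relative to normal growth. Of the 6 trophoblast markers, which bear on HSD3B1 as the placental form, GATA3 fell in both comparisons with metformin and no other was called. A further trophoblast marker was higher at an unadjusted p under 0.05 in starvation relative to normal growth. The summed log2 signal of these 6 was 29.1 with metformin, 29.6 in starvation and 29.6 under normal growth. The part of such cells in the HSD3B signals was not tested.

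Genes whose signal followed HSD3B2 most closely over the 9 arrays were sought among 12216 probe sets of at least median brightness. They were PPIF (Pearson r = 0.990), DPYSL3 (0.987), NRG4 (0.984), FAM83D (0.983) and EIF1AD (0.982), given as a description because the 9 arrays form 3 groups whose order sets most of r. PPIF, cyclophilin D of the mitochondrial permeability transition, averaged 10.51 with metformin, 10.97 in starvation and 11.44 under normal growth. After the group means were taken out, its r with HSD3B2 was 0.74, that of DPYSL3 was 0.14 and that of NRG4, a ligand of the EGF family, was 0.46. DPYSL3, a neuronal microtubule-associated protein, averaged 7.46, 8.08 and 8.92 in the same order of groups.

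**Figure D4:**
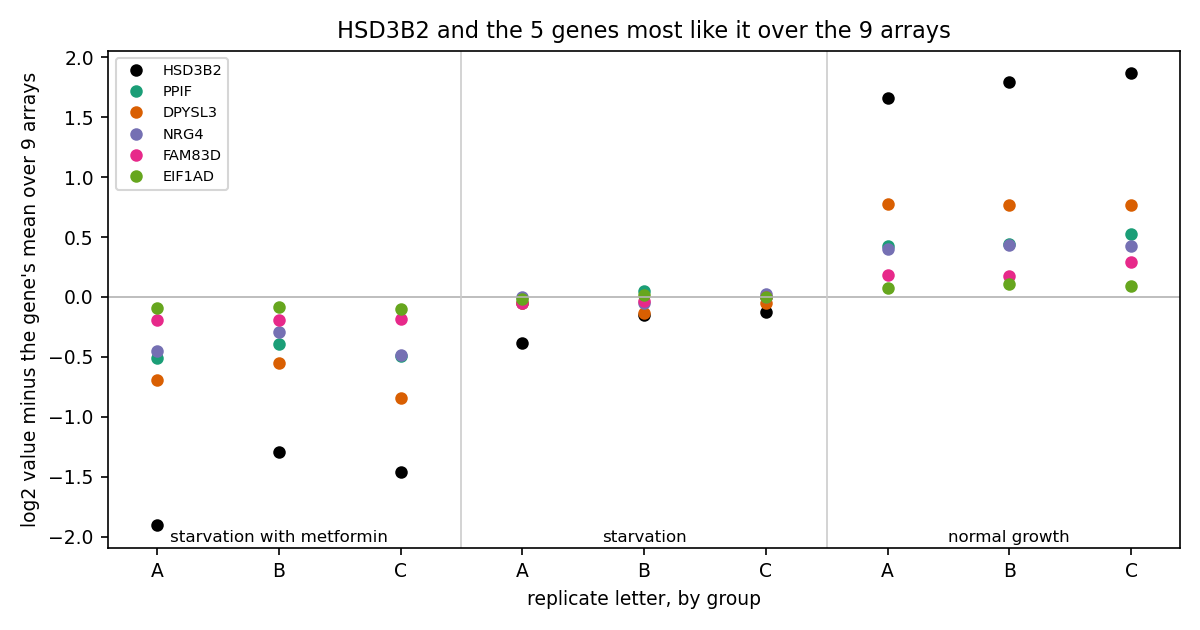
Log2 value minus the gene's mean over the 9 arrays (vertical axis) for HSD3B2 and the 5 genes most like it, on each replicate of the 3 groups (horizontal axis). All 6 genes lie lowest with metformin and highest under normal growth, over a narrower range in the 5 genes than in HSD3B2.

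HSD3B1 was followed most closely by HIGD2A (r = 0.956), a factor of respiratory supercomplex assembly, NPTX2 (0.953), a neuronal pentraxin, and PRR15 (0.952). NPTX2 averaged 9.96 with metformin, 10.01 in starvation and 11.02 under normal growth, so that its starved groups lay close together, below normal growth. None of the 3 was among the 5 named for HSD3B2.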

How the data were processed

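Gene expression was measured on 9 arrays, 3 each of H295R cells in starvation with metformin, in starvation and under normal growth. The authors deposited log2 values made by RMA (background correction, quantile normalization and median polish). RMA, limma and Affymetrix Expression Console are named in the notes of the submitters and Affymetrix Power Tools in the methods, with versions not given in the sources used here. No further normalization was applied.

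Of 33297 probe sets, 19460 had 1 gene symbol, 1754 several and 12083 none. By Entrez identifier 19429 matched the RefSeq gene table, with the same symbol. Genes with several probe sets were given by the brightest, which left 18417 genes. Each pair of groups was fitted with limma 3.58.1 in R 4.3.3 (lmFit and eBayes, 6 arrays, no block), with Benjamini-Hochberg adjustment over all probe sets and a threshold of 0.05. Single differences were tested by exact two-sided permutation. The steps were checked on simulated shifts. The number of arrays limits the precision. The sources do not say whether letters mark a shared experiment.

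Named genes were all HSD3B symbols, a fixed set of steroidogenic enzymes and regulators, list members past the threshold, and the 5 and 3 genes most like HSD3B2 and HSD3B1 by Pearson correlation among probe sets at or above the median mean. The members and lists were chosen with earlier results of these data known. Alternatives were all 9 arrays in 1 fit, a common median, repeated quantile normalization, only probe sets with 1 gene, removal of probe sets whose mean was under the 40th percentile, trend and robust eBayes, array weights, the methods' t-test, a replicate block and leaving out each array. Those for HSD3BP4, other named genes and the difference between paralogs were chosen after seeing the data. Promoter windows were taken from RefSeq and aligned with Biopython 1.88.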

Additional observations from a re-analysis of the deposited data

How the results depend on the processing

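No direction was reversed in any alternative. HSD3B2 kept its call in starvation against normal growth in 10 of 15 alternatives, with metformin against starvation in 9 of 15 and with metformin against normal growth in 14 of 15. Its adjusted p (limma, unless another test is named) with 1 array left out lay between 0.0351 and 0.121, between 0.0379 and 0.118, and between 0.00642 and 0.0376 in these comparisons, and the methods' t-test gave 0.0698 for metformin against starvation. HSD3B1 missed the threshold in all 14 alternatives in starvation (leaving out 1 array, 0.193 to 0.475) and with metformin against starvation (0.229 to 0.807). Against normal growth with metformin it kept its call in 7 of 14 (leaving out 1 array, 0.0259 to 0.112, and 0.0703 by the t-test). HSD3BP4 kept its call there in 9 of 15 (leaving out 1 array, 0.037 to 0.0774, and 0.0782 by the t-test). Removal of dim probe sets left no value for HSD3B1, nor for HSD3BP4 with metformin against starvation. The count of called pathway genes was 1 in starvation against normal growth, with 2 after repeated quantile normalization, without dim probe sets, with trend and robust eBayes or with array weights, and 3 over single-gene probe sets. It was 4 with metformin against starvation, with 8 over all 9 arrays, without dim probe sets or over single-gene probe sets, 7 with array weights and 2 by the t-test. It was 9 with metformin against normal growth, with 5 by the t-test, 10 after repeated quantile normalization or with array weights, 11 over all 9 arrays, without dim probe sets or with trend and robust eBayes, 12 over single-gene probe sets and 4 to 9 with 1 array left out. The causes of the lost calls were not tested. Leaving out 1 array also leaves fewer arrays in the fit, which is not so for the t-test or the replicate block.

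Whether the replicate letters mark shared experiments is not stated, and for that reason they were not taken to pair the arrays. Deviations from the group mean of same-letter arrays correlated at 0.09, 0.13 and 0.02 for starvation and normal growth, 0.29, -0.14 and -0.25 for metformin and starvation, and -0.09, 0.01 and -0.16 for metformin and normal growth. With the letter as a replicate block the adjusted p of HSD3B2 in limma was 0.102, 0.113 and 0.0607 in the 3 comparisons, although its SE was 0.05, 0.10 and 0.11, against 0.09, 0.17 and 0.16 without the block, and replicate A was its lowest array in each group. The adjusted p of HSD3B1 with metformin against normal growth was 0.113 and that of HSD3BP4 there was 0.0607. The count of called pathway genes under the block was 0 in each comparison.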
